A study of Mus musculus with 12 samples.

Results

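The genes described here carry glucose into muscle, store it as glycogen and burn it to lactate: the transporter Slc2a4, the glycogen enzymes Gys1 and Pygm, the glycolytic enzymes Pfkm, Aldoa, Gapdh, Pgam2 and Eno3, and the lactate dehydrogenase subunits Ldha and Ldhb. These 10 genes were fixed by name, and every probe whose gene symbol in the platform annotation was one of them, or a synonym, was taken. Each gene had 1 probe, which gave 10 probes of 33012 on the array and 10 genes of 13840 with a probe of their own. Most of the genes were picked as muscle forms, so a higher level in muscle is partly built into the choice. By the RefSeq genes of GRCm38.p6, Slc2a4, Pgam2 and Eno3 lie on chromosome 11, Gys1, Aldoa and Ldha on chromosome 7, Gapdh and Ldhb on chromosome 6, Pfkm on chromosome 15 and Pygm on chromosome 19.

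Expression was measured in skeletal muscle and hypothalamus of male mice on 12 one-colour chemiluminescent arrays. The congenic mice were homozygous B6.CAST-17, inbred B6 animals with a piece of chromosome 17 from the wild-derived CAST strain, and the wild type mice were B6. There were 3 congenic and 3 wild type arrays in each tissue, each from a different mouse of its strain per the series text. The titles call the congenics short in hypothalamus only, no treatment is named, and the muscle used is not specified. Whether both tissues came from the same mice is not stated in the sample labels, so the tissues were not paired. None of the 10 genes lies on chromosome 17 (0 of 10), so the congenic segment does not carry them.

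Glucose enters a muscle fibre through GLUT4, the product of Slc2a4, which insulin and contraction bring to the cell surface. Inside the fibre glucose is either joined to glycogen by glycogen synthase or split by glycolysis to pyruvate, and glycogen phosphorylase releases the stored units when the fibre works. Several of these steps have a muscle form and a brain or ubiquitous form coded by separate genes, and lactate dehydrogenase is a tetramer built from A and B subunits in proportions that differ between tissues.

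Signals are on a log2 scale, whose base was inferred from the range of 5.35 to 21.1, and every fold rests on base 2. The arrays of a tissue shared 1 distribution, centred at 9.12 (muscle) or 8.98 (hypothalamus), so the tissues seem to have been normalised separately and each level set across tissues rests on those 2 scalings. The median of all probes was 0.17 higher in muscle, a shift that became 0.02 when each array's median was subtracted. Scaling moved some members more than this. With all 12 arrays brought to 1 distribution, the difference, muscle minus hypothalamus, fell from 2.91 to 2.12 for Ldha and from 1.58 to 0.93 for Aldoa. It fell from 0.96 to 0.43 for Gapdh and from -0.84 to -1.54 for Ldhb. The count of members called between the tissues, given below, stayed at 7 of 10. No detection calls were used here, so a low signal cannot be told from background, and the levels of different probes were not ranked against each other. Skeletal muscle markers (9 of 11 measured) had a median between 19.99 and 20.17 on the muscle arrays, against 8.18 to 9.20 on the hypothalamus arrays. Neuron markers (8 of 9 measured) had a median of 8.10 to 8.65 on the muscle arrays, against 13.72 to 14.53 on 5 hypothalamus arrays. On the sixth, wild type hypothalamus array 1, that median was 12.17. Of the single markers, Gap43 was at 10.76 on this array, against 16.89 to 17.75 on the other 5. Nefl (16.40), Stmn2 (17.80) and Elavl4 (15.87) lay within the range of those 5, and Syt1 (13.57) lay above it. This array correlated with the others of its tissue at a Spearman coefficient of 0.42 to 0.46 over all probes, where the other 5 reached 0.78 to 0.85 among themselves, and the comparisons that use hypothalamus are therefore given with and without it.

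Promoter sequence was at hand for 9 of the 10 genes, from RefSeq on GRCm38.p6. The 250 bases before the start site are printed for the members with the largest tissue differences, Pgam2, Eno3 and Pygm, and for Ldhb, the member whose difference ran the other way. Capitals mark E-boxes, the letters CANNTG that proteins of the MyoD family bind, and matches to the MEF2 consensus, an A- and T-rich site bound by a family of muscle and neuronal transcription factors. The letters stand on the gene's own strand, 5′ to 3′. Pgam2 lies at chr11:5803797-5804046 on the minus strand, Pygm at chr19:6384158-6384407 on the plus strand, Eno3 at chr11:70656926-70657175 on the plus strand and Ldhb at chr6:142507958-142508207 on the minus strand.
Pgam2: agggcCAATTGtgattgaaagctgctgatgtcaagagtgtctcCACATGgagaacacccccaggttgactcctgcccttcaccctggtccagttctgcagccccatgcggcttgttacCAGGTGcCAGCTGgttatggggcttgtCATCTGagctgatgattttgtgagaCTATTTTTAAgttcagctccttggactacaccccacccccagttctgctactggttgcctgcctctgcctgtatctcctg
Pygm: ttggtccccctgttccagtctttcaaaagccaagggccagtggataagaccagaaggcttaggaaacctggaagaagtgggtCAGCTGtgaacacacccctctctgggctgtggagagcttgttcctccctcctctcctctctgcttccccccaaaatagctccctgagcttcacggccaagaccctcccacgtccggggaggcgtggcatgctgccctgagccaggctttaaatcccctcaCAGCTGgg
Eno3: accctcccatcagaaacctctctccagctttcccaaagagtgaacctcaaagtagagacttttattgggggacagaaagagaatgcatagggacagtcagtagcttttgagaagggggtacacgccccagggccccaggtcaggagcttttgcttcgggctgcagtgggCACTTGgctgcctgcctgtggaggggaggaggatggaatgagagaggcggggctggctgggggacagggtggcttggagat
Ldhb: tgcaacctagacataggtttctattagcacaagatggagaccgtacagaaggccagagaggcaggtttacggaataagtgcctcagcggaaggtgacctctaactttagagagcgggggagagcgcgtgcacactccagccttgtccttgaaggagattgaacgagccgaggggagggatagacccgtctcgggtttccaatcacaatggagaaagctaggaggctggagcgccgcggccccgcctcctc

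The Pgam2 window held 5 E-boxes and 1 match to the MEF2 consensus, Pygm held 2 E-boxes, Eno3 held 1 and Ldhb held 0, and no marked stretch overlapped another. Both strands were searched. The 9 genes had 15 promoter entries, of which 12 held an E-box, against 66.2% of 32851 mouse promoters of the same length. The entries without one were those of Gapdh and Ldhb and 1 of the 4 of Pfkm. The MEF2 consensus was found in 1 of the 15, that of Pgam2, against 2.92% of all promoters. A match describes letters in this window and does not show that a factor binds there.

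The first comparison asked whether the congenic segment went with a change of these genes in muscle. None of the 10 passed limma's test after Benjamini-Hochberg adjustment over all probes (0 of 10 at an adjusted p under 0.05, and 0 of 10 at an unadjusted p under 0.05). Across the array 6 of 33012 probes, 0.0182%, passed, and 1653 had an unadjusted p under 0.05, while an ordinary test with equal variances called 0 members and 0 probes. The congenic and wild type arrays overlapped for every member, so 0 of 10 had separate groups, against 11.9% of all probes. Over the members the median difference, congenic minus wild type, was -0.12 on the log2 scale and the median size 0.19, against 0.01 and 0.29 over all probes. The sign of that small median depended on single arrays and became 0.03, 0.09 or 0.01 without congenic array 1, congenic array 2 or wild type array 3.

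**Figure D1:**
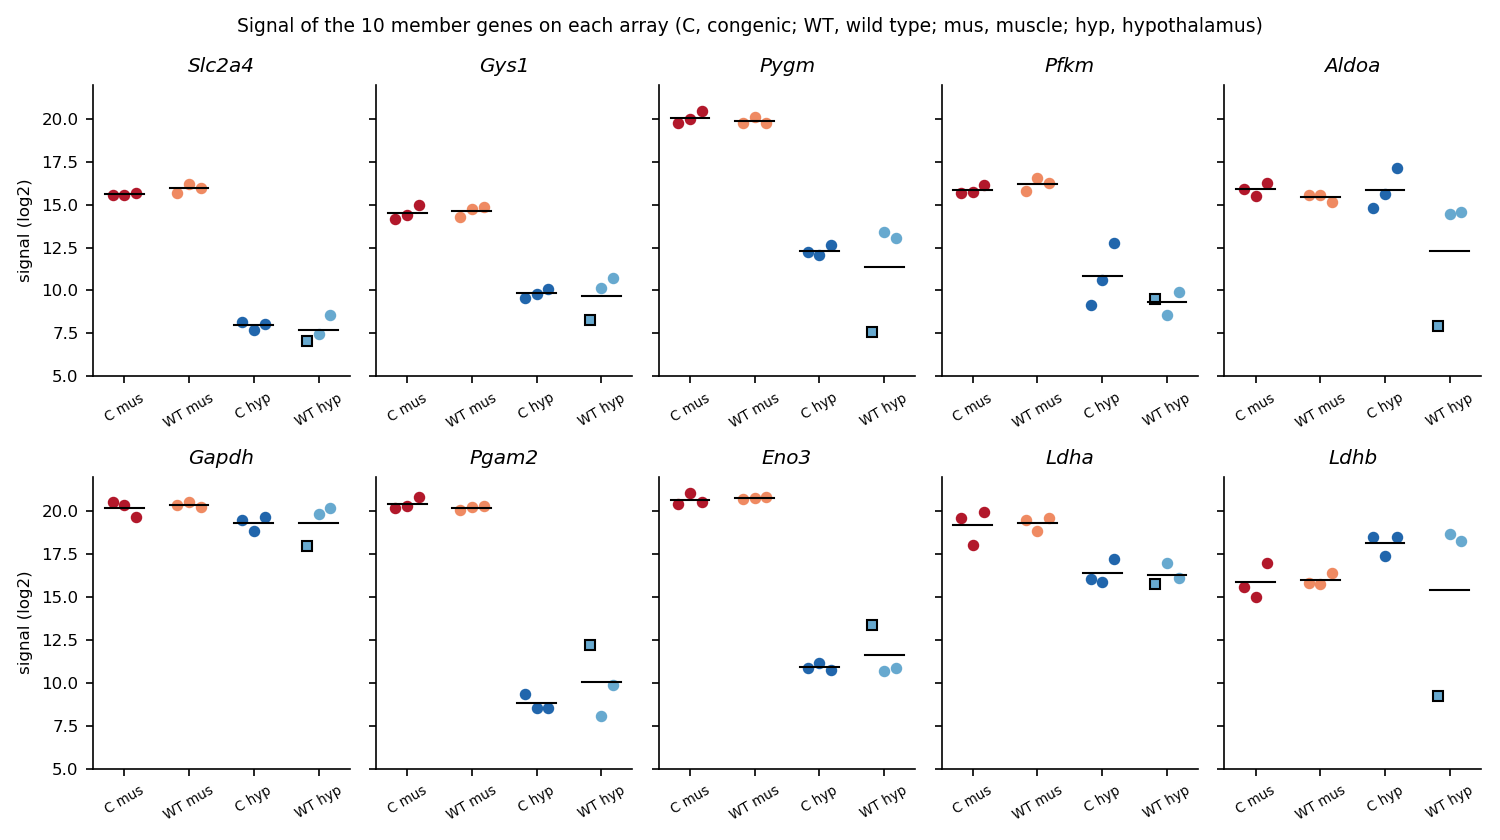
Log2 signal (vertical axis) of the 10 genes on each of the 12 arrays, with 1 panel per gene and congenic muscle, wild type muscle, congenic hypothalamus and wild type hypothalamus from left to right. Points are arrays and the black-edged square is wild type hypothalamus array 1. Congenic and wild type points overlap in every muscle panel, and the square lies outside the range of the other hypothalamus points for every gene but Pfkm.

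Slc2a4, the insulin-responsive glucose transporter, had signals of 15.57, 15.55 and 15.70 in congenic muscle, against 15.69, 16.18 and 15.98 in wild type muscle. The groups touched only through the highest congenic and the lowest wild type array. Their means were 15.61 ± 0.08 and 15.95 ± 0.25 (SD, n = 3 each), a difference of -0.34 with a 95% interval of -0.72 to 0.04 and a limma adjusted p of 0.835. The interval lies mostly below 0 and includes it.

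Gys1, muscle glycogen synthase, gave 14.17, 14.39 and 14.98 in congenic muscle, against 14.29, 14.73 and 14.87 in wild type muscle. Congenic values lay on both sides of the wild type ones, and the difference was -0.11 (95% interval -0.66 to 0.43). Pygm, the muscle glycogen phosphorylase whose loss in people causes McArdle disease, gave 19.77, 19.98 and 20.45 in congenic muscle, against 19.76, 20.11 and 19.77 in wild type muscle. Congenic array 3 was the highest of the 6, and the difference was 0.19 (95% interval -0.25 to 0.62).

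Pfkm, the muscle form of phosphofructokinase, which commits sugar to glycolysis, measured 15.67, 15.72 and 16.15 in congenic muscle, against 15.81, 16.54 and 16.28 in wild type muscle. The difference was -0.37 (95% interval -0.86 to 0.12, adjusted p = 0.835), the most negative of the 10. Aldoa, the aldolase that splits fructose bisphosphate, measured 15.90, 15.50 and 16.28 in congenic muscle, against 15.53, 15.58 and 15.18 in wild type muscle. It had the largest difference in size, 0.46 (SE 0.22, 95% interval -0.02 to 0.95), and the smallest unadjusted limma p of the members, 0.0602, with an adjusted p of 0.835. On the same arrays the median of 5 fibroblast markers was 17.36, 17.71 and 18.13 in congenic muscle, against 17.41, 16.97 and 17.33 in wild type muscle. On each of them this median was the Col1a2 value. Col1a1 was highest on congenic array 3 (16.59), where Lum was lowest (13.27). The median of 4 measured macrophage markers was 14.60 to 14.65 in congenic and 13.45 to 14.16 in wild type muscle. C1qa, C1qb and C1qc were higher on every congenic array than on every wild type array. Mrc1 overlapped between the strains and was lowest on congenic array 3 (12.39). No marker of either list was called (0 in muscle), and their part in the Aldoa values was not tested.

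Gapdh oxidises glyceraldehyde phosphate and is often used as a loading control. Its signals were 20.55, 20.35 and 19.64 in congenic muscle, against 20.35, 20.51 and 20.26 in wild type muscle, so that congenic array 3 alone was low. The mouse genome holds many near-identical Gapdh copies, which a probe may not separate. Pgam2, the muscle phosphoglycerate mutase, had signals of 20.18, 20.28 and 20.82 in congenic muscle, against 20.08, 20.22 and 20.29 in wild type muscle. Eno3, the muscle enolase, had 20.42, 21.03 and 20.55 in congenic muscle, against 20.71, 20.76 and 20.82 in wild type muscle. The differences of these 3 lower-glycolysis genes were -0.19 (95% interval -0.69 to 0.31), 0.23 (-0.18 to 0.64) and -0.10 (-0.49 to 0.30), with adjusted p-values of 0.877, 0.844 and 0.923. On the muscle arrays these 3 genes and Pygm lay between percentiles 99.697 and 99.997 of the probes. The distribution shared by the arrays limits how far such signals can rise, so their differences may be compressed.

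Ldha codes the A subunit, which favours lactate formation. It showed 19.57, 18.01 and 19.95 in congenic muscle, against 19.46, 18.85 and 19.57 in wild type muscle, and congenic array 2 was the lowest of the 6. Ldhb codes the B subunit of heart and oxidative tissue, and showed 15.55, 15.003 and 16.999 in congenic muscle, against 15.81, 15.74 and 16.38 in wild type muscle. Both subunits spread more widely in the congenic arrays, with an SD of 1.03 for each, against 0.39 for Ldha and 0.35 for Ldhb in wild type muscle. Their differences of -0.12 and -0.13 had the widest intervals of the 10, from -1.07 to 0.84 and from -1.08 to 0.83. The median of the slow fibre markers (7 of 8 measured) also ran lowest on congenic array 2 and highest on congenic array 3, with values of 11.34, 10.43 and 12.31 on congenic arrays 1, 2 and 3, against 11.34, 11.43 and 11.67 in wild type muscle. This median was the Myl3 value on each muscle array. Single markers were divided: 5 of the 7 were highest of the 6 arrays on congenic array 3, while Tnnc1 and Casq2 were lowest there, at 13.86 and 18.03. Only Myh7, Myl2 and Myl3 were lowest on congenic array 2. The part of the slow fibre markers in the Ldhb values was not tested. In whole tissue, fewer cells of a type and less RNA per cell cannot be told apart.

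Single arrays thus set much of the muscle spread. Congenic array 3 held the highest of the 6 values for 6 of the 10 members, while wild type array 1 held the highest for 0. The fast fibre markers (8 of 12 measured) had a median of 20.02 to 20.16 on all muscle arrays, near the top of the signal range. Single ones moved more. Pvalb (19.23), Tnnt3 (19.66) and Atp2a1 (19.92) were lowest on congenic array 3, where Mylpf (20.39) was highest.

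**Figure D2:**
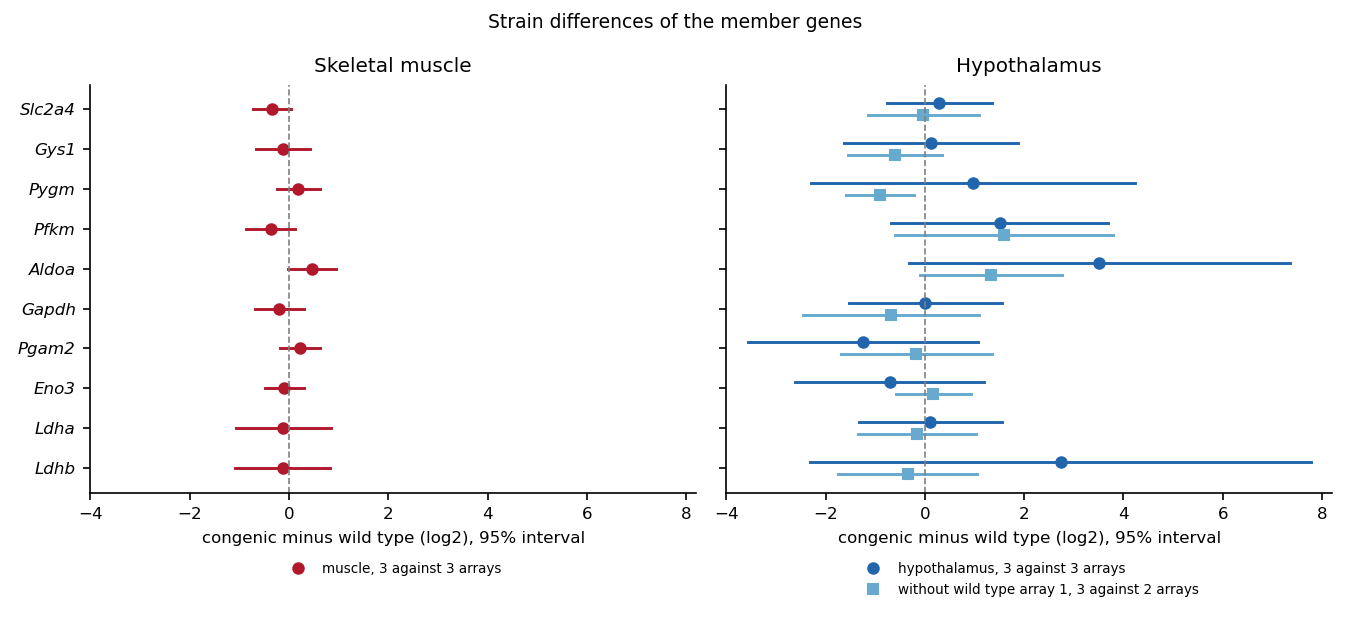
Difference in log2 signal, congenic minus wild type (horizontal axis), for each gene in muscle and in hypothalamus, with 95% intervals from limma. Circles use all 6 arrays of a tissue and squares leave out wild type hypothalamus array 1. All muscle intervals cross 0, and the hypothalamus intervals of Aldoa, Ldhb and Pygm shrink without that array.

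In hypothalamus the same comparison called 0 of the 10 members with limma on all 6 arrays, with adjusted p-values of 0.936 to 0.998 and 0 members at an unadjusted p under 0.05. No probe on the array was called either (0%), with 658 at an unadjusted p under 0.05. Aldoa alone had separate groups (1 of 10, against 9.16% of all probes). Without wild type array 1 the count of members called was still 0, with adjusted p-values of 0.900 to 0.996, as was that of all probes (0%), and 1761 probes had an unadjusted p under 0.05. Gys1, Pygm, Aldoa and Gapdh then had separate groups (4 of 10, against 22.6% of all probes). An ordinary equal-variance test called 0 members with or without that array.

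Aldoa measured 14.79, 15.59 and 17.13 in congenic hypothalamus, against 7.95, 14.47 and 14.55 in wild type hypothalamus. The first wild type value was the outlying array, and the difference of 3.52 (95% interval -0.32 to 7.36) became 1.33 (-0.09 to 2.75) without it. Ldhb measured 18.51, 17.39 and 18.47 in congenic hypothalamus, against 9.24, 18.69 and 18.25 in wild type hypothalamus. Its difference of 2.73 with all arrays was -0.35 (95% interval -1.74 to 1.05) without wild type array 1, so its direction rested on that array. Pygm behaved alike, with 12.27, 12.07 and 12.63 in congenic hypothalamus, against 7.60, 13.40 and 13.05 in wild type hypothalamus. With all arrays its difference was 0.97 (95% interval -2.28 to 4.23). Without wild type array 1 it was -0.90 (95% interval -1.59 to -0.22), the 1 member with an unadjusted limma p under 0.05, at 0.0159 and an adjusted p of 0.900.

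Pfkm had 9.15, 10.58 and 12.75 in congenic hypothalamus, against 9.49, 8.56 and 9.92 in wild type hypothalamus. The congenic arrays spanned more than 3 log2 units, and the difference was 1.503 with all arrays and 1.59 (95% interval -0.61 to 3.78) without wild type array 1. Oligodendrocyte markers (5 of 6 measured) had medians of 9.74, 11.33 and 12.75 on the congenic arrays, against 7.90, 10.46 and 11.01 in wild type hypothalamus. On the congenic arrays these medians ran in the same order as Pfkm and Aldoa, but single markers were divided. Mbp, Cnp and Olig1 rose in that order. Mog (12.02, 11.85 and 12.75) and Mag (8.65, 8.33 and 11.93) were lower on congenic array 2 than on congenic array 1. Mog was at 12.47 and 12.91 on wild type arrays 2 and 3. The part of these markers in the Pfkm and Aldoa values was not tested. Anterior pituitary markers (6 of 6 measured) had a median of 15.25 on congenic array 1, against 9.49 to 10.71 on the other hypothalamus arrays. Congenic array 1 held the highest of the 6 values for 0 members and the lowest for 0. The part of the pituitary markers in the member values was not tested.

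Pgam2, Eno3, Slc2a4 and Gys1 gave far lower signals here than in muscle. Pgam2 gave 9.35, 8.55 and 8.52 in congenic hypothalamus, against 12.19, 8.07 and 9.88 in wild type hypothalamus. Eno3 gave 10.88, 11.15 and 10.75 in congenic hypothalamus, against 13.39, 10.67 and 10.86 in wild type hypothalamus. These were the 2 members whose highest hypothalamus value came from wild type array 1, which gave the lowest value for the other members except Pfkm. Slc2a4 gave 8.18, 7.72 and 8.07 in congenic hypothalamus, against 7.04, 7.47 and 8.58 in wild type hypothalamus. Gys1 gave 9.57, 9.82 and 10.08 in congenic hypothalamus, against 8.25, 10.13 and 10.72 in wild type hypothalamus. With all arrays the differences of Pgam2, Eno3, Slc2a4 and Gys1 were -1.24, -0.71, 0.29 and 0.12. Without wild type array 1 they were -0.17, 0.17, -0.03 and -0.60, so that all but Pgam2 changed sign.

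Gapdh and Ldha serve glycolysis in neurons and glia as well as in muscle. Gapdh had 19.46, 18.82 and 19.68 in congenic hypothalamus, against 17.94, 19.81 and 20.18 in wild type hypothalamus. Ldha had 16.03, 15.89 and 17.20 in congenic hypothalamus, against 15.72, 16.96 and 16.13 in wild type hypothalamus. Their differences were 0.01 and 0.11 with all arrays, and -0.68 and -0.16 without wild type array 1.

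Whether the strain difference itself changed between the tissues was tested as an interaction, muscle minus hypothalamus. It called 0 of the 10 members and 0% of all probes with limma, and 1198 probes but 0 members had an unadjusted p under 0.05. The largest values were -3.05 for Aldoa (95% interval -7.10 to 0.99) and -2.86 for Ldhb (-8.33 to 2.61). Without wild type hypothalamus array 1 it again called 0 of 10 and 0% of all probes, with 2224 probes at an unadjusted p under 0.05, and those 2 values became -0.87 and 0.22. Pygm was then the 1 member with an unadjusted limma p under 0.05, with a value of 1.09 (95% interval 0.20 to 1.98) and an adjusted p of 0.720.

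Muscle and hypothalamus were then compared over both strains, each strain with equal weight. The transporter, both glycogen enzymes, Pfkm, Pgam2, Eno3 and Ldha were higher in muscle and passed the test, which made 7 of 10 members called, against 29.5% of all probes. All 7 were higher in muscle, where 18.5% of all probes were called higher and 11% lower. The same 7 genes had separate groups, with every muscle array above every hypothalamus array, against 20.2% of all probes with separate groups. The members' median difference was 5.38 on the log2 scale, against 0.17 over all probes. Wild type hypothalamus array 1 changed 1 call, that of Ldhb. Without it 8 of 10 were called, 7 higher and 1 lower in muscle, against 40.5% of all probes called, 24.8% higher and 15.7% lower, and 8 of 10 had separate groups, against 29.6%.

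**Figure D3:**
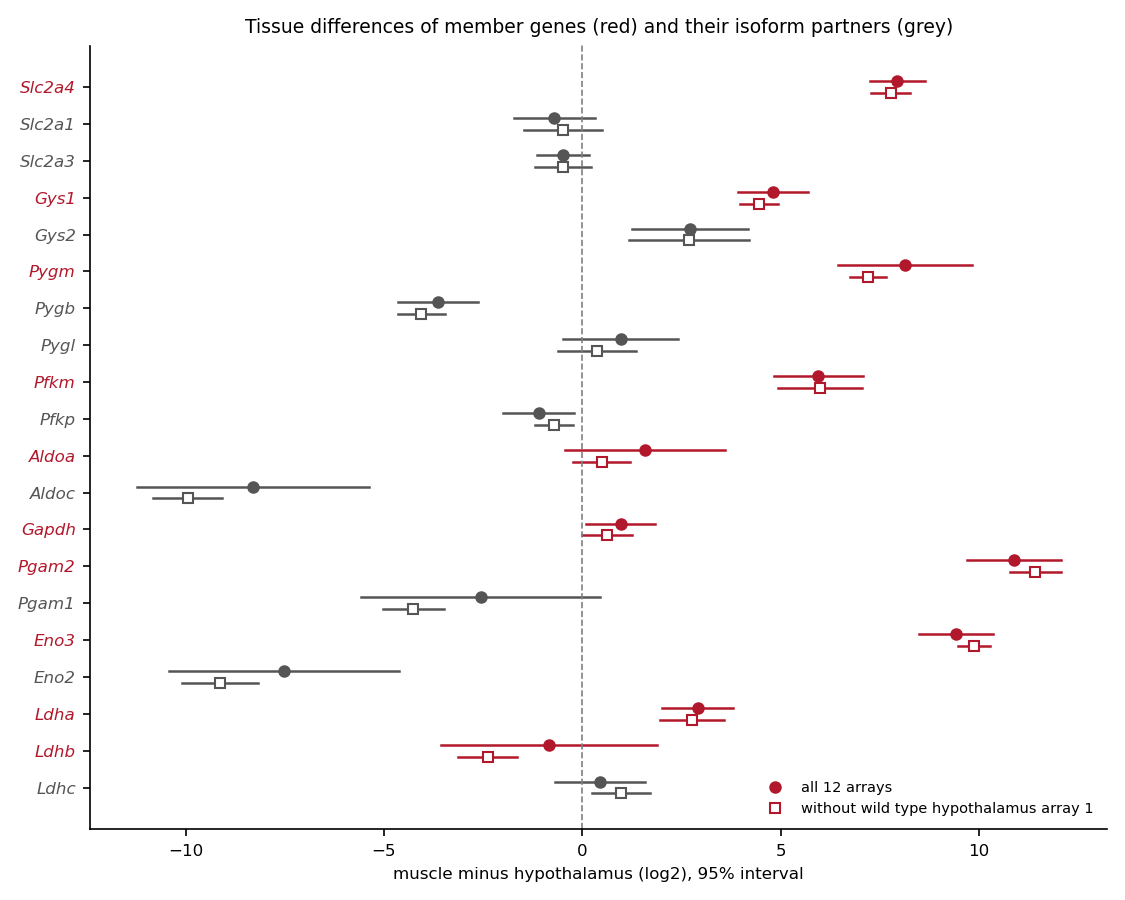
Difference in log2 signal, muscle minus hypothalamus (horizontal axis), with 95% intervals from limma, for the 10 genes in red and for the isoform partners of the members in grey. Filled circles use all 12 arrays and open squares leave out wild type hypothalamus array 1. Pgam2, Eno3, Pygm and Slc2a4 lie farthest to the right, Aldoc and Eno2 farthest to the left, and Ldhb crosses 0 with all arrays only.

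Pgam2 and Eno3, next to each other in lower glycolysis, had the largest tissue differences of the members. For Pgam2 the 6 muscle arrays ran from 20.08 to 20.82 and the 6 hypothalamus arrays from 8.07 to 12.19, a difference of 10.88 (SE 0.55, adjusted p = 6.93e-09), or 1890-fold. For Eno3 they ran from 20.42 to 21.03 and from 10.67 to 13.39, a difference of 9.43 (SE 0.43, adjusted p = 3.19e-09), or 690-fold. Both grew without wild type hypothalamus array 1, to 11.42 and 9.87. Since the low signals cannot be told from background, these folds are sizes on the array's own scale.

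Pygm was 281-fold and Slc2a4 245-fold higher in muscle, with differences of 8.14 (SE 0.78, adjusted p = 3.54e-06) and 7.94 (SE 0.32, adjusted p = 1.13e-09). Without wild type hypothalamus array 1 the difference was 7.20 for Pygm, whose other hypothalamus signals lay between 12.07 and 13.40, and 7.77 for Slc2a4. Pfkm was higher by 5.95 (SE 0.52, adjusted p = 1.25e-06), a 61.9-fold difference. Gys1 was higher by 4.81 (SE 0.41, adjusted p = 1.03e-06), a 28.0-fold difference, the smaller of the pair of glycogen enzymes. The differences without wild type hypothalamus array 1 were 5.99 for Pfkm and 4.45 for Gys1. Ldha showed the smallest called difference, 2.91 (SE 0.41, adjusted p = 1.21e-04), or 7.53-fold, and 2.78 without that array. With all 12 arrays brought to 1 distribution, the Ldha difference was 2.12.

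Aldoa and Gapdh, which most tissues use, did not pass. The Aldoa difference was 1.58 (95% interval -0.44 to 3.61, adjusted p = 0.242) with all arrays and 0.49 (-0.23 to 1.21, adjusted p = 0.280) without wild type hypothalamus array 1. The Gapdh difference was 0.96 (95% interval 0.09 to 1.84, adjusted p = 0.0957) and, without that array, 0.62 (-0.01 to 1.24, adjusted p = 0.110). It was called at 1.18 (adjusted p = 0.0447) when wild type hypothalamus array 3 was left out instead.

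Ldhb ran the other way. Its muscle arrays lay between 15.003 and 16.999, and 5 hypothalamus arrays lay between 17.39 and 18.69 with wild type array 1 at 9.24. With all arrays the difference was -0.84 (95% interval -3.57 to 1.89, adjusted p = 0.678). Without that array it was -2.38 (SE 0.35, 95% interval -3.12 to -1.64, adjusted p = 5.41e-05), a level 5.21-fold lower in muscle.

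The subunits were also set against each other within each array, as log2 Ldha minus log2 Ldhb. A constant shift of an array cannot move this measure, though a change of its distribution can. The zero point of this measure carries no meaning, since probes differ in brightness. It was 4.02, 3.00 and 2.95 in congenic muscle and 3.64, 3.11 and 3.19 in wild type muscle, and -2.48, -1.49 and -1.27 in congenic hypothalamus and 6.48, -1.73 and -2.13 in wild type hypothalamus. All muscle arrays thus stood above 5 of the 6 hypothalamus arrays and below wild type hypothalamus array 1. The mean was 3.32 ± 0.42 in muscle and -0.43 ± 3.42 in hypothalamus (SD, n = 6 each), a difference of 3.75, or 13.5-fold (two-sided exact permutation test, p = 0.0152). Without wild type array 1 the hypothalamus mean was -1.82 ± 0.49 (SD, n = 5), and the difference was 5.14, or 35.2-fold (two-sided exact permutation test, p = 0.00433). Between the strains the measure differed by 0.01 in muscle, with means of 3.33 ± 0.60 in congenic and 3.31 ± 0.29 in wild type mice (exact permutation test, p = 1), a design that cannot go below 0.1. On all hypothalamus arrays it was -1.75 ± 0.64 in congenic and 0.88 ± 4.86 in wild type mice (SD, n = 3 each), a difference of -2.62 (exact permutation test, p = 0.7). Without wild type array 1 it was -1.75 ± 0.64 for the 3 congenic arrays and -1.93 ± 0.28 for 2 wild type arrays (SD), a difference of 0.18 (exact permutation test, p = 0.8).

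**Figure D4:**
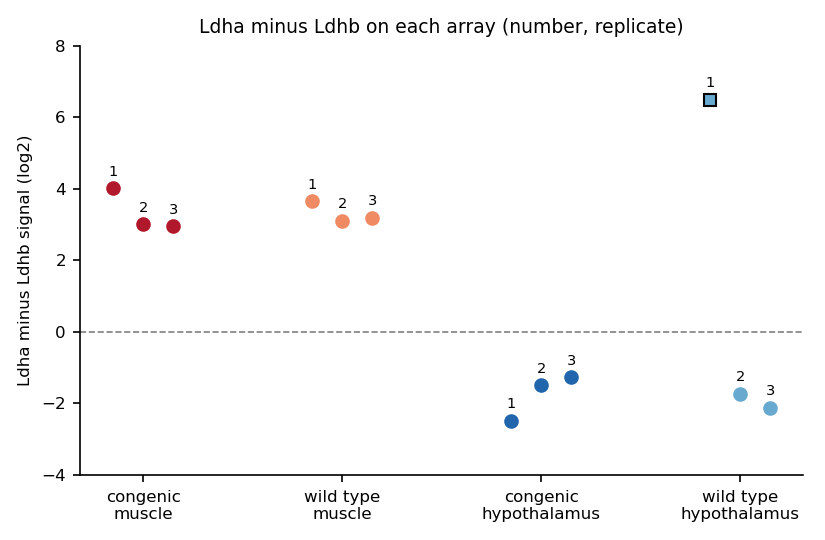
Ldha minus Ldhb in log2 signal (vertical axis) on each array, by group, with the replicate number beside each point and wild type hypothalamus array 1 as a black-edged square. The 6 muscle arrays lie between 2.95 and 4.02, and 5 hypothalamus arrays between -2.48 and -1.27, with the square at 6.48.

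Isoform partners of the members moved in both directions between the tissues. Aldoc, the brain aldolase, had 7.90 to 9.61 on the 6 muscle arrays, against 17.09 to 19.41 on 5 hypothalamus arrays and 9.16 on wild type hypothalamus array 1. It was lower in muscle by a difference of -8.31 (adjusted p = 3.75e-04) with all arrays and -9.95 without that array. Eno2, the neuronal enolase, differed by -7.53 (adjusted p = 7.61e-04) and -9.13, and was at 9.08 on wild type hypothalamus array 1, against 16.45 to 18.73 on the other 5. Eno3 and Eno2 thus ran in opposite directions and both passed, while of the aldolases Aldoc passed and Aldoa did not.

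Pygb, the brain glycogen phosphorylase, was lower in muscle by a difference of -3.64 (adjusted p = 4.77e-05), opposite to Pygm, and by -4.06 without wild type hypothalamus array 1. Its second, dimmer probe gave -0.63 (adjusted p = 0.383) with all arrays and was called at -1.05 (adjusted p = 0.0138) without that array. Pgam1, the ubiquitous phosphoglycerate mutase, had 12.28 to 13.75 on the muscle arrays, against 15.74 to 18.06 on 5 hypothalamus arrays and 7.40 on wild type array 1. Its difference of -2.56 (adjusted p = 0.2005) was called at -4.27 (adjusted p = 2.06e-07) without that array. Gys2, the liver glycogen synthase, was higher in muscle by 2.71 (adjusted p = 8.11e-03), and by 2.70 without that array. Its muscle signals ran from 7.97 to 12.92, with the highest on wild type muscle array 1. The median of the adipocyte markers (3 of 5 measured, 10.58 to 11.78 on the muscle arrays) was also highest there. Fabp4 (19.47) and Plin1 (11.78) were highest there, while Lep was at 8.15, against 7.75 to 9.75 on the other muscle arrays. The part of these markers in the Gys2 values was not tested.

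Pfkp, the platelet phosphofructokinase, differed by -1.10 (adjusted p = 0.0648) and was called at -0.71 (adjusted p = 0.0187) without wild type hypothalamus array 1. Its call changed in 6 of 19 alternatives. On all 12 arrays it was called at -1.24 (limma adjusted p = 0.0393) with each array's median subtracted. With the arrays brought to 1 distribution it was called at -1.27 (limma adjusted p = 0.0486). Ldhc, the testis subunit, differed by 0.44 (adjusted p = 0.591) and was called at 0.97 (adjusted p = 0.0339) without wild type hypothalamus array 1, at signals of 9.55 or less throughout. The glucose transporters Slc2a1 and Slc2a3 and the liver phosphorylase Pygl differed by -0.70, -0.50 and 0.97 with all arrays and by -0.49, -0.49 and 0.37 without that array, and passed in neither case. Slc2a1 signals ran from 8.32 to 9.54 in muscle and from 8.60 to 11.34 in hypothalamus. Those of Slc2a3 ran from 7.29 to 8.52 and from 7.69 to 9.36. At such low signals the lack of a call does not show similar levels of the transporters. Pfkl and Eno1 had no probe that could be named here.

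Around the members, 46 of 58 further genes of glucose handling were measured. Of these, 33 were called between the tissues, 27 higher and 6 lower in muscle, against 29.5% of all probes called, 18.5% higher and 11% lower. Their median difference was 2.63, against 0.17 over all probes. Without wild type hypothalamus array 1 the count was 38, of which 29 were higher and 9 lower, against 40.5% of all probes called. The largest rises in muscle were in Ppp1r3a, the muscle subunit that ties protein phosphatase to glycogen, with 8.12 (adjusted p = 9.18e-08), and Slc16a3, the lactate exporter MCT4, with 7.25 (adjusted p = 5.90e-09). Next came Fbp2, the muscle fructose bisphosphatase, with 6.92 (adjusted p = 6.33e-09), Hk2, the insulin-responsive hexokinase, with 6.56 (adjusted p = 2.15e-07), and Prkag3, a muscle subunit of AMP-activated kinase, with 6.30 (adjusted p = 1.16e-07). In the same order, these 5 differences without wild type hypothalamus array 1 were 8.05, 7.16, 7.17, 6.10 and 6.33.

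Besides Aldoc, Eno2 and Pygb, the genes called lower in muscle were Hk1, Pdk3 and Tpi1. Hk1, the hexokinase typical of brain, differed by -2.83 (adjusted p = 0.0373) and, without wild type hypothalamus array 1, by -3.95. Pdk3, a kinase that switches off pyruvate dehydrogenase, differed by -2.49 (adjusted p = 0.0239) and -3.24. The first of these calls was lost in 12 of 19 alternatives and the second in 7 of 19. Tpi1, triose phosphate isomerase, which was singled out after its values were seen, differed by -1.54 (adjusted p = 5.46e-03) and, without that array, by -1.33.

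Between the strains, 0 of the 46 genes were called by limma in muscle, 2 of them had an unadjusted p under 0.05, and the ordinary test called 0 of all probes. The smallest p-values belonged to the neuronal glucose transporter Slc2a3 (difference 0.88), the glycogen branching enzyme Gbe1 (-1.15) and Hk2 (-0.40), each with an adjusted p of 0.835. Slc2a3 had muscle signals of 8.52 or less, and its difference fell as low as 0.39 among the alternatives. Ppp1r3a was at 13.58 on congenic muscle array 3, against 16.42 to 16.89 on the other 5 muscle arrays, a value noticed after the data were seen. In hypothalamus 0 of 46 were called with all arrays, with 0 at an unadjusted p under 0.05, and the smallest p-values were those of Pfkfb3 (-1.10), Phka1 (0.84) and Stbd1 (-1.74).

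Without wild type hypothalamus array 1, again 0 of 46 were called in hypothalamus, with 3 at an unadjusted p under 0.05: Pdk2 (-1.41), Ldhc (1.48) and Hk1 (-1.22), with an adjusted p of 0.900. The Ldhc difference rested on low wild type signals of 7.02 and 5.70, and fell as low as 0.065 among the alternatives. When congenic hypothalamus array 3 was left out as well, Pdk2 (-1.57, adjusted p = 0.0190) and Hk1 (-1.64, adjusted p = 0.0200) were called on 2 arrays per strain. That setting called 606 of all probes, where 0 were called on the 5 arrays, and 0 of the 10 members. The interaction called 0 of 46 with all arrays, where Phkb (-1.86), Stbd1 (1.90) and Gbe1 (-1.31) had the smallest p-values, and 0 of 46 without wild type hypothalamus array 1, where they were Pdk2 (1.38), Eno2 (2.73) and Ldhc (-1.98), with 0 and 5 genes at an unadjusted p under 0.05.

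Profiles over the 12 arrays, each centred on its own mean, were compared with those of 13830 other genes by the mean absolute difference per array. Nearest to Slc2a4 were Tfec at 0.25, Unc45b at 0.27, Itgb1bp2 at 0.30, Mybpc1 at 0.32 and Art3 at 0.33 log2 units. Unc45b codes a chaperone of muscle myosin and Mybpc1 a myosin-binding protein of the slow skeletal sarcomere. Nearest to the mean of the 10 members were Mapk12 at 0.23, Mlxipl at 0.27, Pde4dip at 0.29, Lrrc20 at 0.30 and Svil at 0.32. Mlxipl codes ChREBP, a transcription factor activated by glucose metabolites. These distances are descriptions, dominated by the gap between the tissues that all of these profiles share.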

How the data were processed

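Per the labels' protocols, cRNA was labelled with digoxigenin (Applied Biosystems chemiluminescent kit) and hybridised to 1 array per sample. The deposited table was read as log2 signal intensity and used without floor or filter. Its log base, software and background handling were not given in the sources used here. The 33012 probes had no missing value, and no pair of arrays was identical (0). The number of arrays, 3 per group, limits the precision.

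Probes were named from the platform annotation, where 14411 carried 1 symbol, 247 several and 18354 none, and 14402 matched the GRCm38.p6 gene table. No probe of several genes named a member (0). For genes outside the members with more than 1 probe, the probe with the highest mean over 12 arrays stood for the gene. Groups came from the sample titles, since the descriptions of wild type samples also name the congenic strain.

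Differences were fitted with limma 3.58.1 under R 4.3.3, using moderated statistics that let the variance follow the mean, each tissue alone for strains and all 12 arrays for tissue and interaction. P-values are two-sided, Benjamini-Hochberg adjusted over all probes, and called under 0.05. The fits were tested on simulated data. The Ldha minus Ldhb measure was tested by exact permutation over arrays with SciPy 1.17.1.

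The members, the wider list and the markers were chosen with earlier results of these data known. All members and their measured isoform partners are named. Of the wider list, at most 5 called genes per direction are named, or the 3 with the smallest p where none was called, and the 5 genes nearest in profile. Replicate numbers were not used to pair samples: same-numbered arrays of the strains deviated together with a correlation of 0.01 to 0.07 in muscle and -0.13 to 0.14 in hypothalamus. Alternatives were the scaling, a floor at the 20th percentile, the brighter probes only, other variance models, the replicate block and each array left out.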

Additional observations from a re-analysis of the deposited data

How the results depend on the processing

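The counts of members called kept their side under every alternative run: 0 for each strain comparison and the interaction, and 7 or 8 for the tissue difference, with 30 to 38 genes of the wider list. With the replicate number as a block these were 0, 0, 0, 7 and 34. In muscle each array correlated best with its own number, a hint from the data and not the design. Among all probes the 6 muscle calls became 2 with a floor or without the variance trend, 1 in the fit of 12 arrays, 0 with an ordinary test, and 2 to 8 with an array left out, the 2 without wild type muscle array 2. The 0 hypothalamus calls without wild type array 1 became 19 with the replicate block and 606 without congenic array 3.

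No called difference of a member changed direction, but uncalled strain differences did, and the cause was not tested. The Slc2a4 difference in hypothalamus was -0.064 with low values floored, and without wild type array 1 that of Ldha was 0.0071 with the replicate block. With 1 array left out, the muscle differences ranged from -0.35 to 0.055 for Gys1, -0.0035 to 0.33 for Pygm, -0.38 to 0.078 for Gapdh, -0.28 to 0.029 for Eno3, -0.50 to 0.47 for Ldha and -0.70 to 0.30 for Ldhb. In hypothalamus they ranged from -0.034 to 0.73 for Slc2a4, -0.60 to 0.63 for Gys1, -0.90 to 1.99 for Pygm, -0.68 to 0.44 for Gapdh, -1.19 to 0.17 for Eno3, -0.30 to 0.45 for Ldha and -0.35 to 4.38 for Ldhb. Without wild type hypothalamus array 1 and 1 further array they ranged from -0.59 to 0.52 for Slc2a4, -1.08 to 0.74 for Pgam2, -0.58 to 0.25 for Ldha and -0.56 to 0.023 for Ldhb. The interaction ranged from -0.75 to 0.49 for Gys1, -1.81 to 1.09 for Pygm, -0.64 to 0.49 for Gapdh, -0.26 to 1.10 for Eno3, -0.61 to 0.36 for Ldha and -4.51 to 0.22 for Ldhb. The Ldha minus Ldhb difference between tissues stayed between 3.35 and 5.14. Where an array left out leaves a group with 1 array, that array is assumed to vary like the rest. Low signals, without detection calls, limit what can be said of the muscle isoforms in hypothalamus.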
